A study of Mus musculus with 6 samples.

Results

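The genes described here encode the enzymes by which hepatocytes burn fatty acids and make ketone bodies, with a few genes that are switched on together with them. The list names 41 genes from general knowledge of the pathway, and it was chosen with earlier results of these data known. Its shares beside those of all genes are therefore a description only. A gene was measured by the probe sets that the platform annotation assigns to its symbol alone, and the brightest of these over the 6 arrays stood for the gene. Of the 41 genes, 39 had such a probe set, and all 39 stayed among the 9295 genes tested after the dimmest 25% of 12393 genes were left out. The fatty acid activating enzyme gene Acsl1 and the omega-hydroxylase gene Cyp4a10 had none and were not analysed here.

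RNA came from liver hepatocytes of C57BL/6 wild type mice aged 3 weeks. Freshly isolated cells were separated by their content of a Hoechst DNA dye, 3 samples as the diploid and 3 as the tetraploid fraction, and no treatment or allele set the fractions apart. A sort on DNA content can place a diploid cell that has copied its DNA in the tetraploid fraction. The replicates are called biological, but the labels do not tie them to separate animals, so the spread between them may be technical in part.

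Mitochondria oxidise fatty acids in repeated cycles. Carnitine carries the activated acid across the membrane, chain-length-specific dehydrogenases open each cycle, and the electrons pass through the electron transfer flavoprotein to the respiratory chain. Peroxisomes shorten acids that mitochondria handle poorly, microsomal cytochrome P450 enzymes of the Cyp4a family oxidise the far end of the chain, and thioesterases release the acid from coenzyme A. In the liver much of the acetyl-CoA formed is turned into ketone bodies. The nuclear receptor PPARa, paired with RXR, switches on many of these genes in suckling and fasting, when fat is the main fuel.

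The receptor pair binds a direct repeat of the letters AGGTCA with 1 base between the copies. The windows below show where letters close to this repeat lie near the starts of the listed genes. RefSeq promoter windows (GRCm38.p6, 250 bases before to 50 after a transcription start) were found for 34 of the 41 genes, in 37 windows. The motif AGGTCANAGGTCA was searched on both strands with at most 2 mismatches outside N. No other motif was searched. It was found in 6 of the 37 windows (16.2%), against 1268 of all 32851 windows of this length (3.86%). The 6 genes were Acot12, Fabp1, Acot4, Etfa, Plin2 and Slc25a20. The matches in Acot12 and Fabp1 had 1 mismatch, which 0.554% of all windows reached, and the other 4 had 2. The lines give the match in capitals with up to 24 bases on each side, 5′ to 3′ on the strand of the gene and stopping at the transcription start. In these 5 windows the capitals read as the reverse complement of the motif.
Acot12, chr13:91741387-91741447, plus strand: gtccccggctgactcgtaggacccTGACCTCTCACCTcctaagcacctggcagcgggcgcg
Fabp1, chr6:71199788-71199848, plus strand: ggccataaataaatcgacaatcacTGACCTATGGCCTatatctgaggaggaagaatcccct
Acot4, chr12:84038342-84038378, plus strand: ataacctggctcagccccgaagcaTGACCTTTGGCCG
Etfa, chr9:55512284-55512344, minus strand: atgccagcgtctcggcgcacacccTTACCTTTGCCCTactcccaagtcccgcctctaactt
Plin2, chr4:86670248-86670308, minus strand: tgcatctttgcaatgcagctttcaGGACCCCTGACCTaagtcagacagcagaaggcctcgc

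In Slc25a20 the match AGGTGAAAGGTCG lay just past the transcription start. A match describes the letters in a window and is not a measured site of binding, and sequence beyond these windows was not searched.

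The values were deposited as RMA intensities on a linear scale and are given here as log2. Array medians lay between 6.43 and 6.48, and the correlation between 2 arrays across genes lay between 0.989 and 0.997 for all pairs. Of 12 tested hepatocyte markers, 6 had the higher mean in the tetraploid and 6 in the diploid fraction, and 0 passed an unadjusted limma p of 0.05, 0 also after adjustment. Equalising the arrays removed any difference in total RNA per cell, so each difference is relative to the other transcripts. In such bulk samples, fewer cells of a type and less RNA per cell cannot be told apart.

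The oxidation and ketone genes showed small differences between the fractions, none of which passed the test. By limma, 0 of 39 genes had an adjusted p under 0.05, as did 0% of the 9295 genes tested. On average 30 of the 39 were higher in the tetraploid fraction and 9 lower, where 47.8% of all genes were higher. The median log2 difference, tetraploid minus diploid, was 0.05 for the 39 genes and -0.006 for all genes tested. For the 39 genes it was 0.02 without tetraploid replicate 2, 0.03 without diploid replicate 2 and 0.08 without tetraploid replicate 1. At an unadjusted limma p under 0.05, 3 genes (7.69%) were higher, against 2.32% of all genes, and 0 were lower, against 3.85%. The 3 genes were Acot4, Bdh1 and Acaa1a. The smallest adjusted p among the 39 was 0.638. Leaving out diploid replicate 2 or tetraploid replicate 2 left 1 gene at that unadjusted p.

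Without any model, the 3 tetraploid values lay above all 3 diploid values for 5 genes (12.8%), against 5.22% of all genes, and below them for 0 genes, against 7.08%. The 5 genes were Acot4, Bdh1, Acaa1a, Acads and Fabp1. An exact two-sided permutation test gave p = 0.1 for each of them, the smallest p that 3 arrays against 3 allow. For 29 of the 39 genes the 95% interval of the difference lay within 0.5 on the log2 scale in either direction, and for 15 of them within 0.25.

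**Figure D1:**
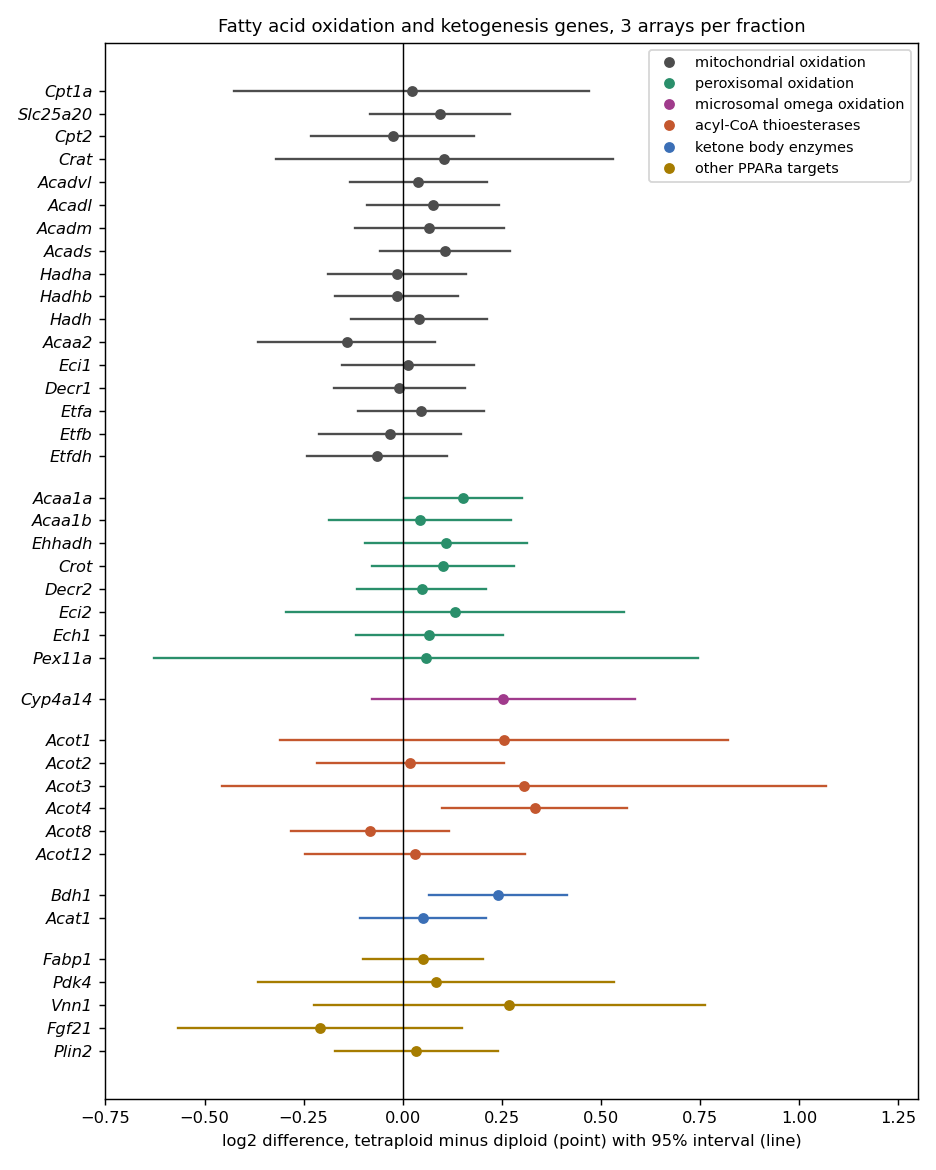
Log2 difference between the fractions (horizontal axis, tetraploid minus diploid) for the 39 measured genes (rows), with the 95% interval from limma as a line and colours for the 6 groups by role. Most intervals cross 0, those of the mitochondrial enzymes are mostly short, and those of Acot3, Pex11a and Acot1 are among the widest.

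Mitochondrial oxidation was measured by 17 of its 18 genes, of which 10 had a higher and 7 a lower mean in the tetraploid fraction. Their median log2 difference was 0.02. The differences ran from -0.14 to 0.11, and 0 of the 17 reached an unadjusted limma p of 0.05. Without diploid replicate 1 the median was 0.05, without diploid replicate 2 it was 0.004, and without diploid replicate 3 or tetraploid replicate 2 it was 0.01.

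At the entry to mitochondria, Cpt1a, whose outer-membrane enzyme sets the pace of oxidation and is blocked by malonyl-CoA, had log2 intensities of 11.23, 11.40 and 11.67 on diploid replicates 1 to 3 and of 11.10, 11.83 and 11.44 on tetraploid replicates 1 to 3. The lowest and the highest values were both tetraploid, and the difference was 0.02 ± 0.19 (SE, n = 3 per fraction). The other Cpt1a probe sets differed by 0.16 and 0.24, also with overlap. Slc25a20, the carnitine carrier of the inner membrane, differed by 0.09 ± 0.08, and by -0.02 with a second probe set. Its partner enzyme Cpt2, which hands the acid back to coenzyme A, differed by -0.02 ± 0.09, and by 0.21 with a second probe set below the cutoff for dim genes, with overlapping fractions in both. Crat, the carnitine acetyltransferase, was at 7.16, 6.91 and 6.41 on the diploid and 7.05, 6.80 and 6.96 on the tetraploid arrays. Diploid replicate 3 stood lowest, and the difference was 0.11 ± 0.18, against -0.19 for a second, dimmer probe set.

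All 4 acyl-CoA dehydrogenases had a slightly higher mean in the tetraploid fraction. The short-chain enzyme gene Acads was at 10.23, 10.17 and 10.12 on the diploid arrays and at 10.23, 10.29 and 10.32 on the tetraploid arrays. The highest diploid value, 10.229, lay just under the lowest tetraploid value, 10.234, and the difference was 0.11 ± 0.07 (SE). Acadl, Acadm and Acadvl, for long, medium and very long chains, differed by 0.08 ± 0.07, 0.07 ± 0.08 and 0.04 ± 0.07, with overlapping fractions in each. The intervals of the 4 genes lay between -0.13 and 0.27.

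Hadha and Hadhb, the subunits of the trifunctional protein that completes the cycle for long chains, differed by -0.01 ± 0.07 and -0.02 ± 0.07 (SE), and a second probe set of Hadhb by 0.20 with overlap. Hadh, the 3-hydroxyacyl-CoA dehydrogenase for shorter chains, differed by 0.04 ± 0.07. The thiolase gene Acaa2 gave different answers by probe set. The brightest was at 13.55, 13.49 and 13.49 on the diploid and 13.19, 13.39 and 13.52 on the tetraploid arrays, a difference of -0.14 ± 0.10. Another differed by -0.01, and the third, at 11.96, 12.11 and 12.08 against 12.24, 12.29 and 12.32, was higher on all tetraploid arrays, by 0.24. The direction for Acaa2 therefore depends on the probe set.

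The enzymes for double bonds, Eci1 and Decr1, differed by 0.01 ± 0.07 and -0.01 ± 0.07. A second, dimmer probe set of Decr1 was higher on all tetraploid arrays, by 0.15. The genes of the electron transfer flavoprotein and its dehydrogenase did not share a direction, with Etfa at 0.05 ± 0.07, Etfb at -0.03 ± 0.08 and Etfdh at -0.06 ± 0.08 (SE). Their intervals stayed between -0.24 and 0.20.

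In peroxisomal oxidation all 8 measured genes had a higher mean in the tetraploid fraction, with a median log2 difference of 0.08. The differences ran from 0.04 to 0.15. Without tetraploid replicate 2 the median was 0.05. With Ech1 and Eci2 counted as mitochondrial it was 0.08, and the mitochondrial median was 0.04. The 4 mitochondrial acyl-CoA dehydrogenases, the 2 ketone body enzymes and Cyp4a14 were also all higher. Leaving out 1 array turned the sign of Acaa1b, Eci2 or Pex11a, and array weights that of Pex11a, while no scaling did. Acaa1a, a peroxisomal thiolase, was at 9.14, 9.13 and 9.17 on the diploid and 9.31, 9.30 and 9.29 on the tetraploid arrays. The values of each fraction lay very close together, and the difference was 0.15 ± 0.06 (SE), a 1.11-fold higher level (limma adjusted p = 0.801). Its second probe set differed by 0.02 with overlapping fractions. Both probe sets are of a kind that can match several transcripts, and the close paralog Acaa1b differed by 0.04 ± 0.10.

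Ehhadh, the bifunctional enzyme of the peroxisomal cycle, differed by 0.11 ± 0.09, and Crot, which passes shortened acids to carnitine for export, by 0.10 ± 0.08. Decr2 and Ech1, which handle double bonds, differed by 0.05 ± 0.07 and 0.07 ± 0.08. All 4 had overlapping fractions. Eci2, an isomerase found in peroxisomes and mitochondria, was at 11.56, 11.78 and 12.19 on the diploid and 11.74, 12.24 and 11.94 on the tetraploid arrays, a difference of 0.13 ± 0.18. Pex11a, which promotes the division of peroxisomes, was at 9.14, 9.45 and 10.12 on the diploid and 9.21, 10.11 and 9.56 on the tetraploid arrays. It spanned 1.97-fold within the diploid and 1.87-fold within the tetraploid fraction, and the difference between them was 0.06 ± 0.29. A second probe set of Pex11a had the same arrays high and low and a difference of 0.009.

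Microsomal omega oxidation was represented by Cyp4a14 alone. It was at 11.27, 11.59 and 11.76 on the diploid and 11.61, 11.94 and 11.83 on the tetraploid arrays. The fractions overlapped, with diploid replicate 1 lowest, and the difference was 0.25 ± 0.14 (SE; limma adjusted p = 0.843). Without diploid replicate 1 it was 0.12. Cyp4a14 has close relatives in its family, and how much of the signal comes from them was not tested.

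The acyl-CoA thioesterases had a median log2 difference of 0.14, with 5 of 6 genes higher. Without tetraploid replicate 2 the median was -0.01, so 1 array decided its sign. It was 0.08 without diploid replicate 1, 0.23 without diploid replicate 3 and 0.27 without tetraploid replicate 1. Acot4, a peroxisomal thioesterase, was at 6.79, 7.02 and 7.07 on the diploid and 7.19, 7.39 and 7.30 on the tetraploid arrays. All tetraploid arrays were above all diploid arrays, by 0.33 ± 0.10 (SE), a 1.26-fold higher level (limma adjusted p = 0.638). A second, dimmer probe set for Acot4 differed by 0.14 with overlapping fractions.

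Acot3, also peroxisomal, was at 6.95, 7.39 and 7.94 on the diploid and 7.26, 8.37 and 7.56 on the tetraploid arrays. Within the tetraploid fraction it spanned 2.15-fold, and the difference of 0.31 ± 0.33 between the fractions was smaller than that spread. Its cytosolic relative Acot1 was at 5.47, 5.53 and 5.94 on the diploid and 5.50, 6.45 and 5.77 on the tetraploid arrays, a difference of 0.26 ± 0.24. Tetraploid replicate 2 was the highest array for both. Acot1 to Acot4 are close copies of one another, and the Acot3 probe set is of a kind that can match several transcripts, so their values may share signal.

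The mitochondrial Acot2 differed by 0.02 ± 0.10, the peroxisomal Acot8 by -0.08 ± 0.09 and Acot12, which hydrolyses acetyl-CoA in the cytosol, by 0.03 ± 0.12. Acot2 and Acot1, at means of 5.51 and 5.78, lay near the cutoff of 5.06 for dim genes.

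Among the ketone body enzymes, Bdh1, which turns acetoacetate into beta-hydroxybutyrate, did not overlap between the fractions. It was at 12.49, 12.39 and 12.49 on the diploid and 12.71, 12.77 and 12.62 on the tetraploid arrays. The tetraploid arrays were all higher, by 0.24 ± 0.07 (SE), a 1.18-fold higher level (limma adjusted p = 0.657). A second, dimmer probe set was at 8.809, 8.995 and 9.032 against 9.045, 9.152 and 9.210, also without overlap, and differed by 0.19. Across the alternatives tried the difference of Bdh1 ran from 0.19 to 0.28. Acat1, which joins acetyl-CoA molecules at the start of ketogenesis, differed by 0.05 ± 0.07. Its other probe sets differed by 0.08, without overlap, and by 0.06, with overlap.

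**Figure D2:**
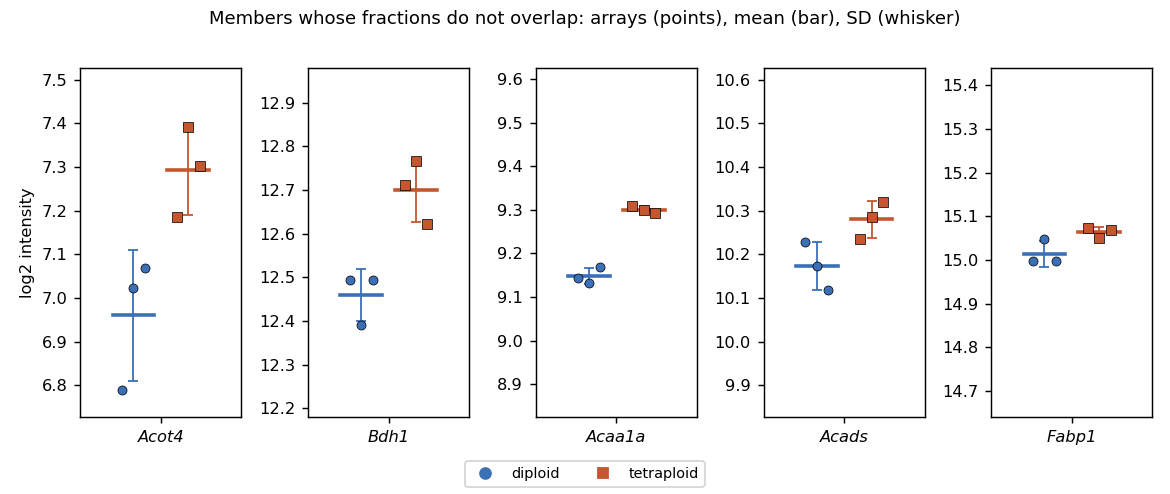
Log2 intensity (vertical axis, 0.8 log2 units in each panel) on the 3 diploid and 3 tetraploid arrays for the 5 genes whose fractions did not overlap, with the mean as a bar and the SD as a whisker. The gap was 0.33 for Acot4 and 0.24 for Bdh1 between the means, and in Acads and Fabp1 the nearest values of the fractions almost touch.

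The other PPARa targets had a median log2 difference of 0.05, and of 0.008 without tetraploid replicate 2. Fabp1, the fatty acid carrier of the liver cytosol, was at 14.998, 15.048 and 14.997 on the diploid and 15.074, 15.051 and 15.069 on the tetraploid arrays, a difference of 0.05 ± 0.06 (SE). The fractions did not overlap by a narrow margin, and the gene was brighter than 99.9% of all genes tested. Its second probe set overlapped. Plin2, which coats lipid droplets, differed by 0.03 ± 0.09.

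Vnn1, a pantetheinase that recycles vitamin B5, was at 9.090, 9.584 and 9.719 on the diploid and 9.347, 10.001 and 9.851 on the tetraploid arrays, a difference of 0.27 ± 0.21. Pdk4, which turns pyruvate dehydrogenase off and so spares glucose, was at 5.48, 5.68 and 6.17 against 5.59, 6.01 and 5.98, a difference of 0.08 ± 0.19. Replicate 1 was the lowest array in each fraction for both genes. Fgf21, the fasting hormone of the liver, was at 5.57, 5.57 and 6.00 against 5.40, 5.75 and 5.37. It was the gene with the lowest difference of the 39, at -0.21 ± 0.15, with overlapping fractions and levels near the cutoff for dim genes.

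A part of these genes varied more within the fractions than between them, many of them in the same arrays. The SD within the fractions, pooled over both, placed 8 of the 39 genes (20.5%) among the 10% of all tested genes with the largest SD. These 8 were Acot3, Pex11a, Acot1, Vnn1, Pdk4, Cpt1a, Eci2 and Crat, with pooled SDs from 0.29 to 0.54. All but Crat had the array order described below. At the other end, Acaa1a, Fabp1, Hadhb, Acat1 and Etfa had pooled SDs from 0.014 to 0.041, where the median of all genes was 0.12.

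In 13 of the 39 genes (33.3%), diploid replicate 3 and tetraploid replicate 2 were the highest arrays of their fractions and replicate 1 of each fraction the lowest, an order chosen for description after the values were seen. The same order was found in 7.33% of all tested genes. The 13 genes were Cpt1a, Slc25a20, Decr1, Crot, Eci2, Pex11a, Cyp4a14, Acot1, Acot3, Acot4, Acot12, Pdk4 and Vnn1. They made up 3 of 17 mitochondrial, 3 of 8 peroxisomal and 4 of 6 thioesterase genes, and Cyp4a14 and 2 of the 5 other targets. Of the 4 dehydrogenases, 3 flavoprotein genes and 2 ketone body enzymes, 0 had this order. Relative to the mean of each gene over the 6 arrays, the median of the 13 genes was at -0.34, -0.07 and 0.12 on diploid replicates 1 to 3 and at -0.21, 0.27 and 0.03 on tetraploid replicates 1 to 3. The medians of the other 26 genes lay between -0.04 and 0.04 on all 6 arrays. The order itself split the genes, so these medians only describe them. The SEs and counts of overlap treat the 6 arrays as unpaired, and the labels do not say whether arrays of different fractions share an animal or a day. If they do, these values do not describe the differences within such pairs. The replicate numbers carry no sequence in time, and what the high and low arrays share was not tested.

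**Figure D3:**
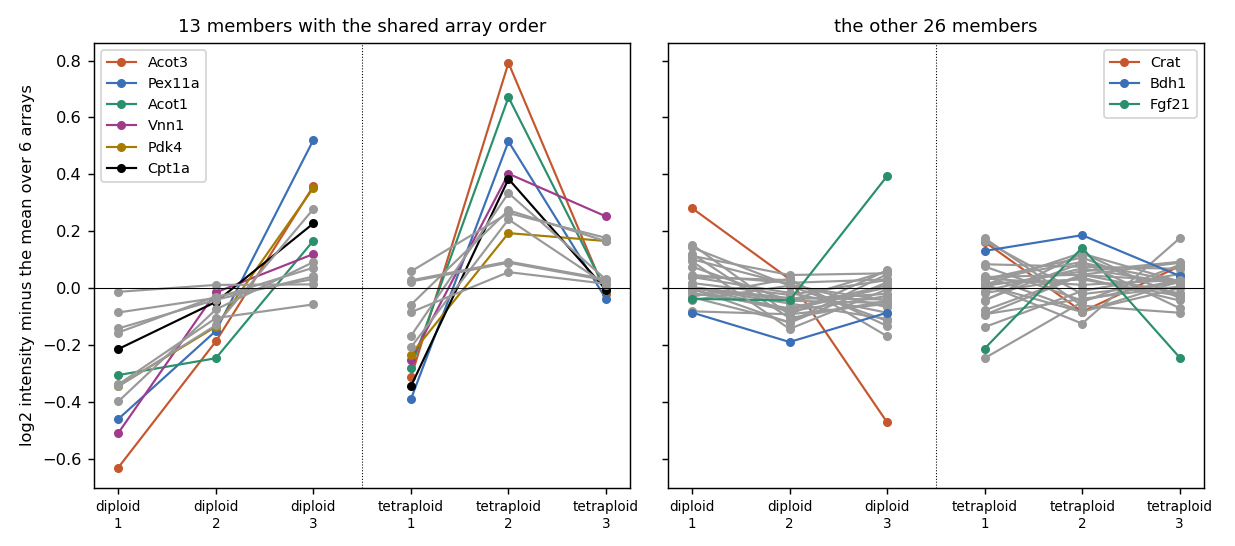
Log2 intensity minus the mean of the gene over 6 arrays (vertical axis) on each array (horizontal axis), for the 13 genes with the shared order on the left and the other 26 on the right. Lines join the values of 1 gene within a fraction and imply no order in time. On the left, diploid replicate 3 and tetraploid replicate 2 are high and both replicates 1 low, and on the right most lines stay close to 0.

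Of the 6 genes with a motif match, Acot12, Acot4 and Slc25a20 were among the 13, of which 10 had a promoter window. The other 3 matches, in Fabp1, Etfa and Plin2, belonged to genes without the shared order. Over all 34 listed genes with a window, 6 (17.6%) had a match. A link between the motif and the array order was not tested.

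The rest of the pathway was described with lists of 109 other genes, of which 91 were tested. These lists, too, were chosen with earlier results of these data known. The mean was higher in the tetraploid fraction for 53 of them and lower for 38, and the median log2 difference was 0.01. By limma, 0 of the 91 had an adjusted p under 0.05, and 2 an unadjusted p under 0.05, 1 higher and 1 lower. Of all genes, 2.32% were higher and 3.85% lower at that unadjusted p. Without diploid replicate 2 or tetraploid replicate 2, 0 of the 91 reached it, and without diploid replicate 1 only 1 did. The 2 genes were Acad9, which serves in the assembly of respiratory complex I, at 0.19 ± 0.07, and Acad10, another dehydrogenase of the family, at -0.29 ± 0.12 (SE, n = 3 per fraction). Acad9 was at 9.51, 9.53 and 9.47 on the diploid and 9.76, 9.68 and 9.63 on the tetraploid arrays, without overlap. The tetraploid values lay above all diploid values for 3 of the 91 genes, Acad9, Scp2 and Adh4, against 5.22% of all genes. They lay below them for 2, Hsd17b10 and Mcee, against 7.08%.

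Among 17 other peroxisomal genes the mean was higher for 10 and lower for 7. Pex5, the import receptor of the peroxisome, differed by 0.14 ± 0.08, catalase (Cat) by 0.10 ± 0.08 and Hsd17b4, the second multifunctional enzyme of the cycle, by -0.03 ± 0.10. Of 13 genes of acyl activation and entry, 8 were higher. Slc27a4, a fatty acid transport protein, differed by 0.11 ± 0.08 and Acacb, which makes the malonyl-CoA that restrains Cpt1a, by -0.33 ± 0.25. Acacb was at 7.13, 7.10 and 6.91 on the diploid and 7.22, 6.10 and 6.84 on the tetraploid arrays, with tetraploid replicate 2 far below the others.

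Of 18 other mitochondrial acyl-CoA enzymes, 9 were higher and 9 lower. Among 7 other genes listed with omega oxidation 3 were higher. Aldh3a2, a fatty aldehyde dehydrogenase, differed by 0.19 ± 0.10 and Adh4 by 0.18 ± 0.09. Of 4 tested genes of ketone use and transport 3 were higher, with the monocarboxylate carrier Slc16a1 at 0.05 ± 0.08 and Aacs, which activates acetoacetate in the cytosol, at -0.08 ± 0.11. Of 17 genes of lipolysis, lipid droplets and other PPARa targets 11 were higher, with Fabp4 at 0.28 ± 0.15 and the pyruvate dehydrogenase kinase Pdk1 at 0.20 ± 0.14. Fabp4 overlapped between the fractions and, at a mean of 5.58, lay near the cutoff for dim genes.

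Among the regulators of the pathway, 0 of 15 reached an unadjusted limma p of 0.05, 0 also after adjustment, while many varied widely within the fractions. A higher mean in the tetraploid fraction was found for 9 and a lower one for 6, with a median of 0.008, and 9 of the 15 (60%) had the shared array order, against the 7.33% of all genes. Over all 91 pathway genes it was 17 (18.7%). Ppara itself was at 10.29, 10.53 and 10.86 on the diploid and 10.65, 11.29 and 10.73 on the tetraploid arrays. Tetraploid replicate 2 was highest, the fractions overlapped, and the difference was 0.33 ± 0.20 (limma adjusted p = 0.855). Its co-activator Ppargc1a was at 8.83, 9.58 and 10.06 against 8.89, 10.05 and 9.45, with a difference of -0.03 ± 0.36. The mitochondrial deacetylase Sirt3 differed by 0.12 ± 0.09.

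The widest spread within this order belonged to 3 genes chosen after their values were seen. Lpin1, a phosphatidate phosphatase that also co-activates PPARa, was at 10.09, 12.03 and 12.95 on the diploid and 9.89, 12.90 and 11.93 on the tetraploid arrays. It spanned 7.25-fold within the diploid and 8.03-fold within the tetraploid fraction, while the fractions differed by -0.12 ± 0.90 (SE). Angptl4, a secreted inhibitor of lipoprotein lipase, was at 9.70, 10.99 and 11.67 against 9.81, 11.78 and 11.10. Plin5, a lipid droplet coat of oxidative tissues, was at 8.19, 8.76 and 10.13 against 7.94, 9.85 and 8.71. Angptl4 spanned 3.92-fold within the diploid fraction and Plin5 3.85-fold, and their differences between the fractions were 0.11 ± 0.60 and -0.19 ± 0.59. Of the 17 tested genes of lipolysis, lipid droplets and other PPARa targets, only these 2 (11.8%) had the shared order. G0s2 of the same list varied as widely in another order, at 9.65, 7.55 and 8.24 against 9.75, 8.70 and 7.58. Replicate 1 was its highest array in each fraction.

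**Figure D4:**
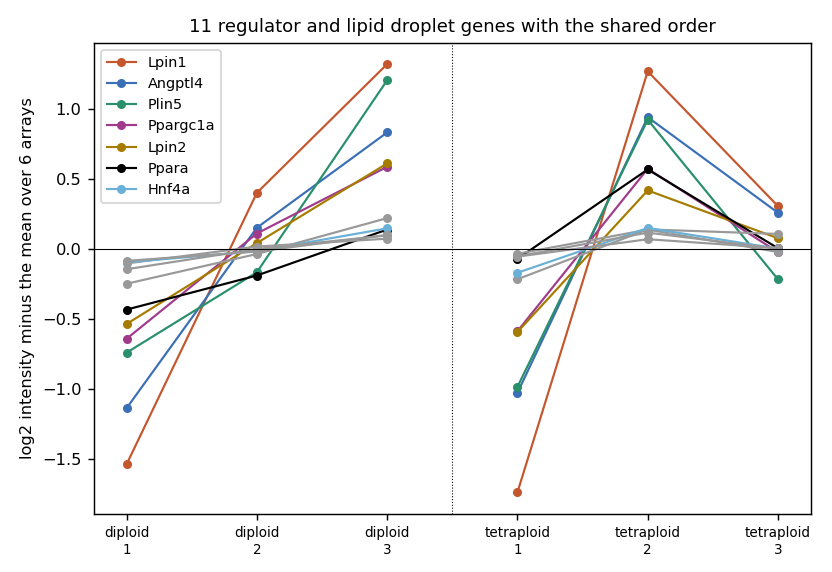
Log2 intensity minus the mean of the gene over 6 arrays (vertical axis) on each array (horizontal axis), for the 11 regulator, lipolysis and lipid droplet genes with the shared order. Lines join the values of 1 gene within a fraction and imply no order in time. Lpin1, Angptl4 and Plin5 have the widest swings, and Ppara and Ppargc1a follow the same arrays.

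Markers of other cells and of position in the liver lobule were set beside these values. Of 12 tested markers of periportal hepatocytes, 10 were lower in the tetraploid fraction, 8 of them without overlap, with a summed intensity from 100899 to 113237 on the diploid and 90019 to 101128 on the tetraploid arrays. Of 14 tested pericentral markers, 12 were higher, 8 without overlap, with sums from 76783 to 77251 and from 83211 to 86665. The shares of all genes without overlap were 7.08% below and 5.22% above. Of 11 tested markers of liver endothelial cells, 9 were higher, and 3 further markers were among the dim genes. Sums over all 14, the dim ones included, ran from 1184 to 1351 on the diploid and from 1330 to 1552 on the tetraploid arrays. Of 7 tested markers of Kupffer cells and other macrophages, the mean was higher for 1 and lower for 6, and their median log2 difference was -0.09. By limma, 8 periportal markers were lower, 6 pericentral and 4 endothelial markers higher at an unadjusted p under 0.05, and 0 of them at an adjusted p under 0.05. At that unadjusted p, 3.85% of all genes were lower and 2.32% higher. The pericentral sums did not overlap between the fractions, while the periportal and endothelial sums did. The part of these markers in the values of Bdh1, Acot4 and Acaa1a was not tested. The shared array order was found in 1 of the periportal, 0 of the pericentral, 1 of the endothelial, 0 of 7 macrophage and 2 of 12 hepatocyte markers.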

How the data were processed

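Total RNA of 6 samples of sorted mouse hepatocytes was labelled with biotin and hybridised to Affymetrix arrays, per the labels' protocols. Each probe set has 1 deposited intensity for each array, on a linear scale. The authors made it with RMA, per the submitters' processing notes, with its version and settings not given in the sources used here. Intensities were turned into log2. Of 22690 probe sets, 64 were controls, 20380 carried 1 gene symbol, 691 several and 1555 none, and only the 20380 were used, with the brightest standing for each gene. The 25% of genes with the lowest mean over the 6 arrays were left out.

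Fractions were compared with limma 3.58.1 in R 4.3.3 (lmFit, eBayes, two-sided) across all 9295 genes, with ploidy the only factor, and p-values were adjusted by Benjamini-Hochberg over all of them. The code was tested on simulated data with larger changes than any of the 39 differences. That test does not show how well differences of the size seen here are found. Intervals are 95% intervals of that fit. Precision is limited by the number of arrays: the median SE of the 39 differences was 0.081. The rule for named genes was every listed gene with a probe set, the 2 genes with the smallest p of each further list, and Ppara, Ppargc1a, Hsd17b4 and a few genes not reported here. The genes and lists were chosen with earlier results of these data known. Alternatives covered the filter, the probe set, the scaling, the variance model, the replicate number as a block and leaving out each array. Stellate, cholangiocyte and blood markers had 3 of 6, 1 of 2 and 1 of 3 tested genes higher.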

Additional observations from a re-analysis of the deposited data

How the results depend on the processing

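Under all 15 alternatives of the fit, 0 of the listed genes and 0 of the further pathway genes passed an adjusted limma p of 0.05. At an unadjusted p under 0.05, 0 listed genes were higher with the second brightest probe set, and from 1 to 3 when 1 array was left out. The count without overlap above the diploid arrays ran from 5 to 11 when 1 array was left out, and that below them from 0 to 2, where fewer arrays make a gap easier. Centring the arrays on their medians gave 1 below. The further pathway genes at an unadjusted p under 0.05 numbered 5 with the mean over probe sets, 7 with the second brightest, and 0 to 3 with 1 array left out. With 1 array left out, the mitochondrial median ran from 0.0045 to 0.047, the thioesterase median from -0.015 to 0.27 and the number of genes higher from 25 to 31. Of 39 genes, 20 kept their sign in all alternatives and 19 changed it in at least 1, none of them past the threshold. The shared array order was found in 10 to 13 genes under 6 alternatives of filter, probe set and scaling. Its share of all genes tested also moved, from 5.98% with no filter on dim genes to 9.13% with the dimmest 50% left out.

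The replicate block left 0 listed genes past the adjusted threshold, where it called 9 of 9295 genes, and 4 at an unadjusted p under 0.05. Whether the numbers pair the samples is not given by the labels. Deviations from the fraction means correlated across genes at 0.57 for the replicates 1, -0.20 for the replicates 2 and -0.20 for the replicates 3. Diploid replicate 3 correlated best with tetraploid replicate 2 (0.69) and diploid replicate 2 with tetraploid replicate 3 (0.38). The shared array order follows the same arrays. Deviations of the 3 arrays of a fraction cancel out by construction, so these correlations depend on one another and are not separate observations. Samples may be related across numbers, which the labels do not say and which was not tested. No such pairing was fitted, and the SEs, p-values and overlaps assume unpaired samples.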
